A study of Homo sapiens with 20 samples.

Results

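Glycolysis and the transcriptional response to low oxygen were followed here through 32 genes in the human pancreatic lineage, with and without the RNA demethylase ALKBH5. The genes were taken by symbol from a list that was chosen with earlier results of these data known. Each of the 32 was found once in both kinds of expression table, among 60624 gene identifiers listed for islet-like organoids and 60623 for pancreatic progenitors. They comprise 17 glycolytic enzymes, 3 regulators of pyruvate use and glycolytic flux, 1 lactate exporter, 2 alpha subunits of hypoxia-inducible factor (HIF), 2 prolyl hydroxylases that sense oxygen, and 7 further HIF targets. All samples came from MEL1, a human embryonic stem cell line with a GFP reporter at the insulin locus, either unedited (WT) or edited by CRISPR-Cpf1 in the first exon of *ALKBH5* (A5-KO). Human islet-like organoids (hILOs) were sequenced from WT and A5-KO cells with 2 libraries for each genotype, after media that the labels describe up to day 22. The study's methods add a further medium after that day, so the age of the organoids is uncertain. Pancreatic progenitors (PPs), which form earlier on the same path, had media described up to day 14 and received actinomycin D (Act D), an inhibitor of transcription, at 1 μg per ml for 0, 1, 2 or 3 h, again with 2 libraries for each genotype and time. The labels do not tell edited lines apart, so the edit and the particular line that carries it cannot be told apart. The study calls the replicates of its Act D course biological replicates, but nothing read here states that the 2 libraries of a group were separate differentiations, and the spread between them may be partly technical.

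Glycolysis turns glucose into pyruvate through a chain of enzymes, most of which exist as several paralogs with different tissue preferences. When oxygen is scarce, the HIF alpha proteins escape hydroxylation by the prolyl hydroxylases, pair with a beta subunit and bind short DNA elements near target genes, among them many glycolytic enzymes, lactate export and pH regulation genes, and the prolyl hydroxylase genes themselves. In mature beta cells, *HK1* and *LDHA* are known for being kept low, which couples glucose to mitochondrial metabolism and insulin release.

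The core letters of the HIF-binding element, ACGTG or GCGTG on either strand, were looked for in RefSeq promoters (GRCh38.p14, 250 bases before to 50 after a transcription start). The table held 56 promoters of 29 of the genes and none of *VEGFA*, *BNIP3L* and *NDRG1*. One or both cores occurred in 37 of the 56 (66.1%) and in 48.4% of the 35116 promoters of all genes, ACGTG in 39.3% against 21.4% and GCGTG in 39.3% against 36.5%. At least 1 promoter with a core was present for 27 of the 29 genes, and *PGAM1* and *EGLN3* had none in these windows. That count per gene rises with the number of listed starts. It was not made for all genes, so it cannot be set against the 48.4% of promoters. The 250 bases before the start are printed for the 2 genes with the largest falls in A5-KO hILOs and for 3 abundant enzymes, with every core match in capitals (a palindromic CACGTG is a match on both strands).
*SLC16A3* promoter, chr17:82228792-82229041, plus strand: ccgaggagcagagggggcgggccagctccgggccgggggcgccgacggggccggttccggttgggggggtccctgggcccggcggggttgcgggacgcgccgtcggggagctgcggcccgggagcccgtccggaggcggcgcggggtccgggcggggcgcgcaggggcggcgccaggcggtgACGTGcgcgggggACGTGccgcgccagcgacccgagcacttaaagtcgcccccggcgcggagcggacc
*CA9* promoter, chr9:35673678-35673927, plus strand: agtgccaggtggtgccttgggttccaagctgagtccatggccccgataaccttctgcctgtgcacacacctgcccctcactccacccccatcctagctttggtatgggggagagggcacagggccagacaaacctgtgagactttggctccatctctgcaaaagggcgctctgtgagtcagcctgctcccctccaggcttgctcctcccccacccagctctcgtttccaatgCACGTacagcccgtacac
*PGK1* promoter, chrX:78103998-78104247, plus strand: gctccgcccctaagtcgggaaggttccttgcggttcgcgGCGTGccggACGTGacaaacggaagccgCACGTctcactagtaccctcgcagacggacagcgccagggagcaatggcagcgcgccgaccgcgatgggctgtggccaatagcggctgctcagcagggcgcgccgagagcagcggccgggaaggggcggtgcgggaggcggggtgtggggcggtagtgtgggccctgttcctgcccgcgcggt
*ENO1* promoter, chr1:8878687-8878936, minus strand: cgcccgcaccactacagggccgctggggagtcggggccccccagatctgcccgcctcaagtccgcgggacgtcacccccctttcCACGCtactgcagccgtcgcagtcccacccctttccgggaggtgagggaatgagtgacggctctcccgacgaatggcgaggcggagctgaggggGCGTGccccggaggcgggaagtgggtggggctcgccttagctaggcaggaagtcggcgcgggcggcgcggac
*LDHA* promoter, chr11:18394313-18394562, plus strand: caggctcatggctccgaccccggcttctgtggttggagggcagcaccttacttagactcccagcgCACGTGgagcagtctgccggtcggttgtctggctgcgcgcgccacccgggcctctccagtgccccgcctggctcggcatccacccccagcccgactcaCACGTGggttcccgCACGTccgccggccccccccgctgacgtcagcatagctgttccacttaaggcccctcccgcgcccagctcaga
The *SLC16A3* stretch, from 1 of its 5 listed starts, held 2 ACGTG cores close together, and that of *CA9* held a single core 18 bases before the start. The *PGK1* stretch held 3 cores within a short span, *ENO1* held 2 of the GCGTG kind and *LDHA* held 5 matches, 4 of them from 2 palindromes. The printed stretches are examples that all hold a core, which was not so for all 56 promoters. A match is a description of the letters, and binding was not measured.

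hILO values were TPM, transcript levels that are scaled for transcript length and library total, so that depth cannot be read from them. As listed they did not share one total, and summed to 924887 and 922614 in WT and 897038 and 887320 in A5-KO libraries. PP values were CPM, which scale the reads of a gene by the library total alone, and they rested on 30516384 to 35206514 reads per library. The edit was visible in the targeted gene: *ALKBH5* was at 78.8 and 81.9 TPM in WT hILOs against 4.16 and 3.42 TPM in A5-KO hILOs, and at 149 and 172 CPM in untreated WT PPs against 19.1 and 18.8 CPM in A5-KO PPs. Endocrine markers were present in hILOs and near 0 in PPs, as fits their labels, and pluripotency and endothelial markers were near 0 in hILOs. Markers of other cell types moved with genotype. In hILOs 8 hepatocyte markers together reached 20404 to 20752 TPM in WT libraries against 35758 to 36020 TPM in A5-KO libraries with 6 of 8 separated upward and 1 (*FGB*) downward, and 5 endocrine markers reached 34178 to 36492 TPM against 26002 to 27210 TPM with 5 of 5 separated downward. The 6 mesenchyme markers summed to 6.56 to 13.7 TPM in WT hILOs against 41.1 to 47.4 TPM, with 5 of 6 higher in both A5-KO libraries. The 3 intestine markers summed to 490.4 to 491.0 TPM against 608 to 621 TPM, with *VIL1* and *CDH17* separated upward and *CDX2* downward. The 7 PP markers summed to 366 to 372 TPM against 340 to 346 TPM, with 5 of 7 separated downward and 2 (*PDX1* and *PTF1A*) upward. The part of these markers in the results that follow was not tested, and in bulk RNA fewer cells of a type and less RNA per cell cannot be told apart.

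To ask how loss of ALKBH5 changed the pathway in organoids, genotypes were compared with limma on log2(TPM + 1) over the 17300 genes that averaged 1 TPM or more. A gene was called downregulated or upregulated at a Benjamini-Hochberg adjusted *p* below 0.05 with a change over 1.5-fold. Of the 32 genes, 18 were downregulated in A5-KO hILOs and 0 were upregulated, where the background over all genes tested was 4.09% downregulated (707 genes) and 2.7% upregulated (467 genes), or 6.79% in either direction. At an unadjusted *p* below 0.05, 30 of the 32 were lower and 0 were higher, against 18.7% and 12.2% of all genes tested. Both A5-KO libraries lay below both WT libraries for 31 of the 32 genes, against 37.1% of all genes tested. The median change of the 32 was -0.71 on the log2 scale, against -0.06 over all genes. The 32 were chosen with earlier results of these data known, so these shares describe the list and do not test it. A permutation test of 2 against 2 libraries cannot give less than *p* = 0.33 (exact, two-sided) for a single gene, so the calls rest on the spread that limma shares across genes.

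**Figure D1:**
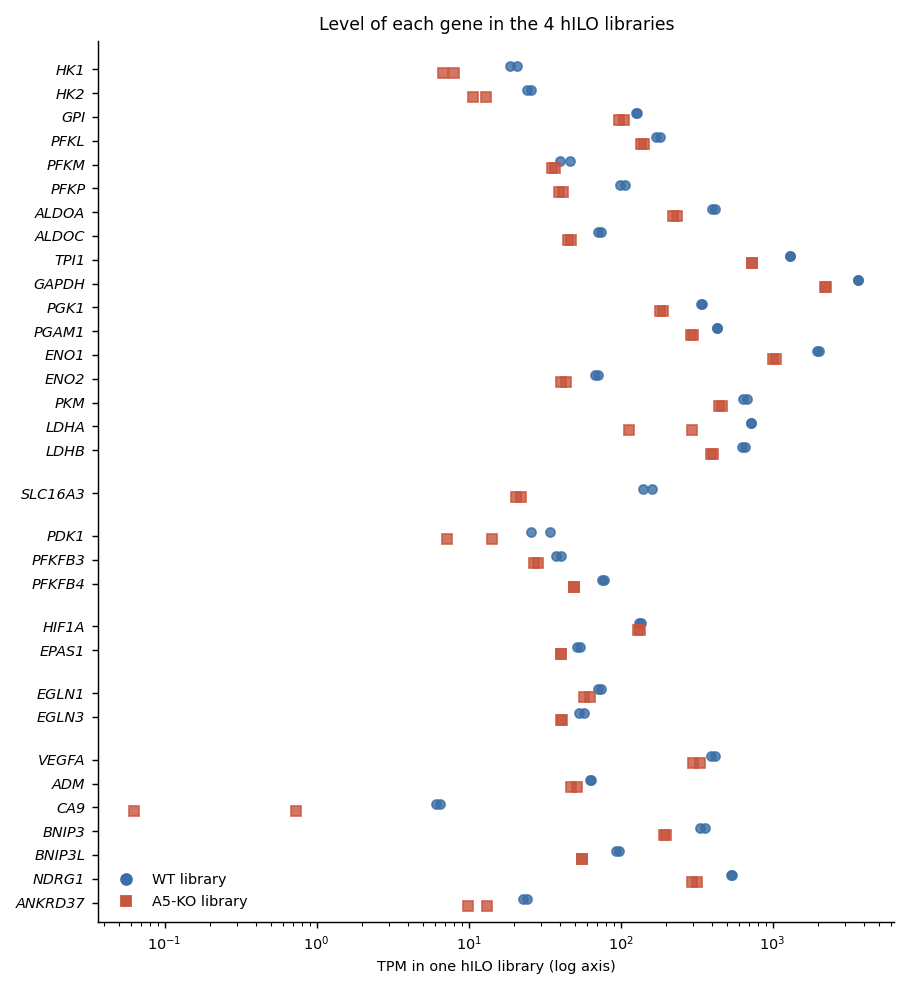
TPM of each of the 32 genes in the 4 hILO libraries, on a log axis, with WT libraries as circles and A5-KO libraries as squares and genes grouped by role. The squares lie left of the circles in every row but that of HIF1A, where they overlap, and the pair of A5-KO libraries is wide apart for LDHA (114 and 295 TPM), PDK1 (14.3 and 7.24 TPM) and CA9 (0.0632 and 0.729 TPM).

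The first step of the chain, phosphorylation of glucose, is carried out by the hexokinases. *HK1* was at 18.8 and 20.9 TPM in the WT pair and 6.80 and 8.02 TPM in A5-KO hILOs, a change of -1.31 ± 0.12 (log2, SE; adjusted *p* = 0.0112). *HK2* was at 25.9 and 24.1 TPM against 12.9 and 10.8 TPM (-1.02 ± 0.12, adjusted *p* = 0.0174). Both low-*Km* hexokinases were thus downregulated with no overlap between genotypes. Phosphofructokinase, the committing step, behaved unevenly across its 3 paralogs. *PFKP*, the platelet-type isoform, was at 98.9 and 106 TPM with ALKBH5 intact and 41.6 and 39.5 TPM without it (-1.32 ± 0.06, adjusted *p* = 0.0036). *PFKL*, the liver-type isoform, was at 181 and 172 TPM against 142 and 136 TPM, which passed the *p* limit (0.0247) but not the 1.5-fold limit. *PFKM*, the muscle-type isoform, was at 46.6 and 40.2 TPM against 35.6 and 37.1 TPM (adjusted *p* = 0.167).

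The share of *PFKP* in the summed phosphofructokinase level was 30.3% and 33.4% in WT hILOs and 19.0% and 18.6% in the A5-KO pair, while that of *PFKL* was 55.5% and 54.0% against 64.8% and 63.9%. These shares are descriptions with no test. In PPs, where CPM was divided by exon length before shares were taken, *PFKP* made up 15.6% and 16.2% of the sum in WT and 17.0% and 16.1% in A5-KO libraries, so the PP libraries did not show the separation seen in hILOs. Shares of the hexokinases overlapped between genotypes in hILOs, with *HK1* at 42.1% and 46.3% in WT and 34.5% and 42.7% in A5-KO libraries.

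**Figure D2:**
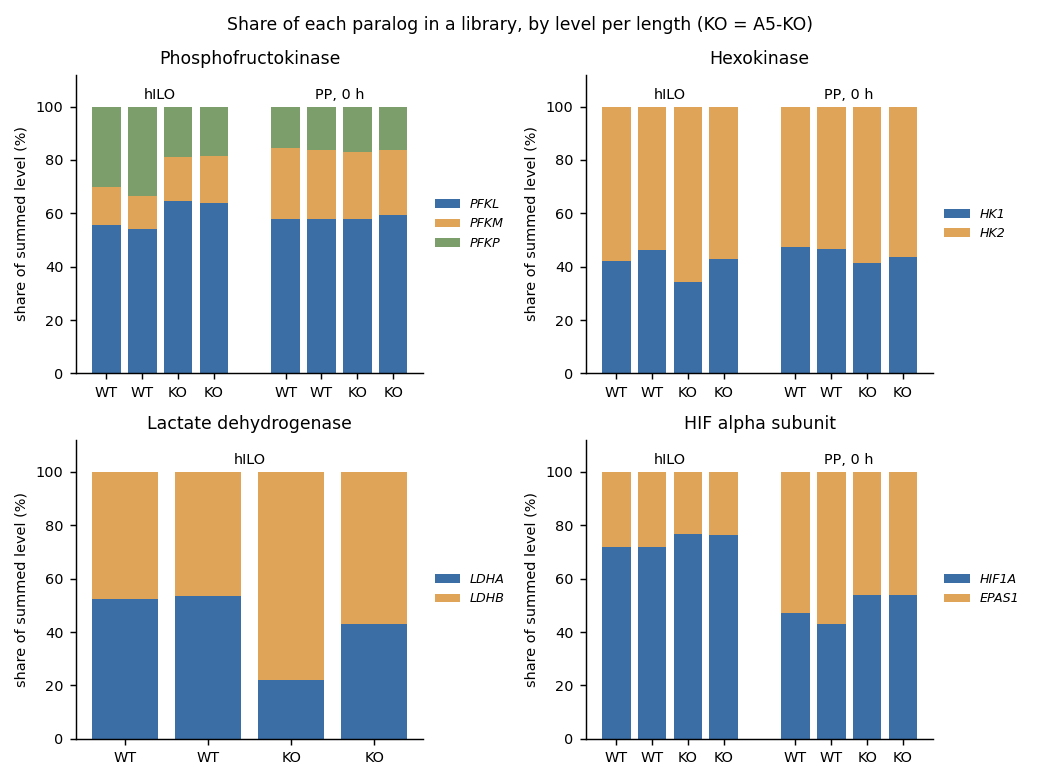
Stacked bars give the percentage of each paralog in the summed level per length of its group, with a bar for every hILO library and every PP library at 0 h. PFKP is between 30.3% and 33.4% in WT hILOs and between 18.6% and 19.0% in A5-KO hILOs, the LDHA share of the A5-KO hILO libraries differs between the pair (22.0% and 43.0%), and lactate dehydrogenase is left out for PPs because of overlapping gene models.

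Aldolase splits the 6-carbon sugar. *ALDOA*, its ubiquitous form, was at 401 and 418 TPM in WT hILOs against 237 and 222 TPM in the A5-KO pair (-0.83 ± 0.05, adjusted *p* = 0.00528). *ALDOC*, the brain-type form, was at 71.2 and 74.3 TPM against 47.2 and 45.2 TPM (-0.64 ± 0.06, adjusted *p* = 0.00995). Both fell, with *ALDOA* at 84.9% of the aldolase sum in both WT libraries and 83.4% and 83.1% in A5-KO libraries. Of the exon bases of *ALDOA*, 42.8% are shared with another gene on the same strand (ENSG00000285043), which was listed at 329 and 323 TPM in the WT pair and 210 and 205 TPM in A5-KO hILOs.

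The enzymes of the lower chain were among the most abundant transcripts of the organoids. *GAPDH*, which oxidises glyceraldehyde-3-phosphate, was at 3664 and 3634 TPM with ALKBH5 intact and 2225 and 2235 TPM without it (-0.71 ± 0.02, adjusted *p* = 0.00213). *TPI1*, which interconverts the triose phosphates, was at 1312 and 1300.3 TPM against 731 and 729 TPM (-0.84 ± 0.03, adjusted *p* = 0.00213). *PGK1*, the first ATP-yielding step, was at 342 and 336 TPM against 191 and 182 TPM (-0.86 ± 0.04, adjusted *p* = 0.00359). In all 3 the libraries of a genotype lay within a few percent of each other and the genotypes did not overlap. *ENO1*, the ubiquitous enolase, was at 2011 and 1970.1 TPM in WT hILOs against 1047 and 1009 TPM in the A5-KO pair (-0.95 ± 0.03, adjusted *p* = 0.00215). *ENO2*, the neuronal and endocrine enolase, was at 70.9 and 68.3 TPM against 43.9 and 40.6 TPM (-0.71 ± 0.06, adjusted *p* = 0.0103). *ENO1* supplied 96.6% of the enolase sum in each WT library and 96.0% and 96.1% in A5-KO libraries. *PGAM1*, the mutase of 3-phosphoglycerate, was at 433 and 432 TPM in WT hILOs against 299 and 290.2 TPM, and *PKM*, pyruvate kinase, at 679 and 641 TPM against 469 and 446 TPM. *PGAM1*, *PKM* and *GPI* passed the *p* limit at changes of -0.55, -0.53 and -0.33 and stayed short of 1.5-fold. *GAPDH* has 65 annotated pseudogenes named after it and *PGAM1* has 13, and reads shared with such copies could not be assigned with certainty.

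Summed over the 17 enzymes, the level was 10856 and 10718 TPM in WT hILOs and 6151 and 6214 TPM in A5-KO hILOs, with no overlap. Of the 17 enzymes, 11 were downregulated (4.09% of all genes tested), 15 were lower at an adjusted *p* below 0.05 alone (7.32% of all genes tested) and all 17 had an estimate below 0 (57.9% of all genes tested), with a median of -0.71.

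Lactate dehydrogenase converts pyruvate to lactate, and its A and B subunits differed in how well the libraries agreed. *LDHA* was at 718 and 721 TPM in WT hILOs and 114 and 295 TPM in A5-KO hILOs. Both A5-KO libraries were far below WT, but they differed from each other by over 2-fold, and the change of -1.97 ± 0.47 did not pass (adjusted *p* = 0.0711). It passed when either A5-KO library was left out, at -1.28 without replicate 1 and -2.65 without replicate 2 (adjusted *p* = 0.0265 and 0.0235), with the remaining library taken to vary like WT. *LDHB* was at 657 and 630.0 TPM in the WT pair and 403 and 391 TPM in A5-KO hILOs (-0.70 ± 0.04, adjusted *p* = 0.00437). *LDHA* made up 52.2% and 53.4% of the sum of both subunits in WT and 22.0% and 43.0% in A5-KO libraries. Of the exon bases of *LDHB*, 33.4% lie in another gene on the same strand (ENSG00000285854), at 122 and 117 TPM with ALKBH5 intact and 74.6 and 71.4 TPM without it.

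*SLC16A3*, which encodes the lactate exporter MCT4 and lies at chr17:82217934-82261129 (GRCh38, GENCODE annotation), had the largest fall of the 32 genes. It was at 160.2 and 140 TPM in WT hILOs against 22.1 and 20.5 TPM in the A5-KO pair, a 7.05-fold difference of the means (-2.76 ± 0.09, adjusted *p* = 0.00213). Its A5-KO level was 14.2% of WT. *PDK1*, a kinase that holds pyruvate dehydrogenase inactive, was at 34.4 and 25.7 TPM in the WT pair and 14.3 and 7.24 TPM in A5-KO hILOs, with both A5-KO libraries below WT and a spread within each genotype that left it short of the limit (-1.45 ± 0.35, adjusted *p* = 0.0712). *PFKFB4*, one of 2 enzymes here that make the phosphofructokinase activator fructose-2,6-bisphosphate, was at 78.0 and 75.7 TPM against 49.2 and 49.2 TPM (-0.63 ± 0.05, adjusted *p* = 0.00807). The other, *PFKFB3*, was at 40.5 and 37.8 TPM against 28.8 and 27.0 TPM and did not reach 1.5-fold (-0.47).

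Among the HIF targets that are not part of glycolysis, 5 of 7 were downregulated (4.09% of all genes tested). All 7 were lower at an adjusted *p* below 0.05 alone (7.32% of all genes tested). *CA9*, a membrane carbonic anhydrase used widely as a marker of hypoxia, was at 6.51 and 6.08 TPM with ALKBH5 intact and 0.0632 and 0.729 TPM without it (-2.43 ± 0.30, adjusted *p* = 0.0185). The A5-KO mean was 6.30% of WT, and the log2(TPM + 1) scale understates that change because the level is low. Its exons share 35.7% of their bases with *ARHGEF39* on the other strand, which was at 3.98 and 3.54 TPM in WT hILOs against 1.81 and 2.32 TPM in the A5-KO pair, and a stranded count is not described. *ANKRD37*, a small ankyrin-repeat protein gene, was at 23.0 and 24.3 TPM against 13.2 and 9.97 TPM (-0.98 ± 0.15, adjusted *p* = 0.0298). Its exons share 40.3% of their bases with *UFSP2* on the other strand, which was at 28.8 and 26.3 TPM in WT hILOs against 22.8 and 22.0 TPM in the A5-KO pair, and at 18.8 to 19.8 CPM in PPs at 0 h.

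*BNIP3* and *BNIP3L* encode related mitophagy receptors and fell side by side. *BNIP3* was at 332 and 360.1 TPM in the WT pair and 199.8 and 193 TPM in A5-KO hILOs (-0.81 ± 0.05, adjusted *p* = 0.00621). It has 44 annotated pseudogenes named after it, and reads shared with them could not be assigned with certainty. *BNIP3L* was at 93.0 and 97.6 TPM against 55.5 and 55.8 TPM (-0.76 ± 0.05, adjusted *p* = 0.00621). The share of *BNIP3* in their sum was 78.1% and 78.7% in WT and 78.3% and 77.6% in A5-KO libraries, so no separation was seen. *NDRG1*, a stress-responsive gene, was at 530 and 541 TPM in WT against 316 and 295 TPM in A5-KO hILOs (-0.81 ± 0.05, adjusted *p* = 0.00511). *VEGFA*, the angiogenic ligand, was at 394 and 415 TPM in WT hILOs against 298 and 334 TPM, and *ADM*, the vasodilator peptide adrenomedullin, at 63.7 and 62.9 TPM against 51.8 and 47.1 TPM. Both passed the *p* limit only, with changes of -0.36 and -0.35 (adjusted *p* = 0.0454 and 0.0462).

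None of the 4 genes for HIF alpha subunits and prolyl hydroxylases was downregulated past both limits. *HIF1A* was at 132 and 137 TPM with ALKBH5 intact and 135 and 131 TPM without it. The genotypes overlapped, and the change was -0.01 ± 0.04 (adjusted *p* = 0.899). *EPAS1*, which encodes HIF-2 alpha, was at 51.6 and 53.8 TPM against 40.7 and 40.4 TPM (-0.37 ± 0.06, adjusted *p* = 0.0288, under 1.5-fold), and its share of the sum of both alpha subunits was 28.1% and 28.3% in WT and 23.1% and 23.5% in A5-KO hILOs. *EGLN1* was at 71.1 and 74.6 TPM in WT hILOs against 57.6 and 62.5 TPM in the A5-KO pair, and *EGLN3* was at 52.9 and 57.7 TPM against 40.4 and 41.0 TPM. Neither prolyl hydroxylase reached 1.5-fold (-0.28 and -0.43). HIF activity is set largely through protein stability, which was not measured here.

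Leaving out any single hILO library lowered the count of downregulated genes from 18 to 11 (without WT replicate 1, A5-KO replicate 1 or A5-KO replicate 2) or 10 (without WT replicate 2). *PFKP*, *ALDOA*, *TPI1*, *GAPDH*, *PGK1*, *ENO1*, *LDHB*, *NDRG1* and *SLC16A3* passed in all 4 of these fits, and 31 of the 32 genes kept an estimate below 0 in all 4. *BNIP3* passed in 3 of the 4 fits, and *CA9* and *BNIP3L* passed in 1. *HK1*, *HK2*, *ALDOC*, *ENO2*, *PFKFB4* and *ANKRD37* passed in 0 of the 4, with adjusted *p* between 0.0512 (*ENO2*) and 0.131 (*ANKRD37*) and the change of *HK1* between -1.42 and -1.21. Over all genes the downregulated count fell from 707 to between 96 and 203 in these fits.

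**Figure D3:**
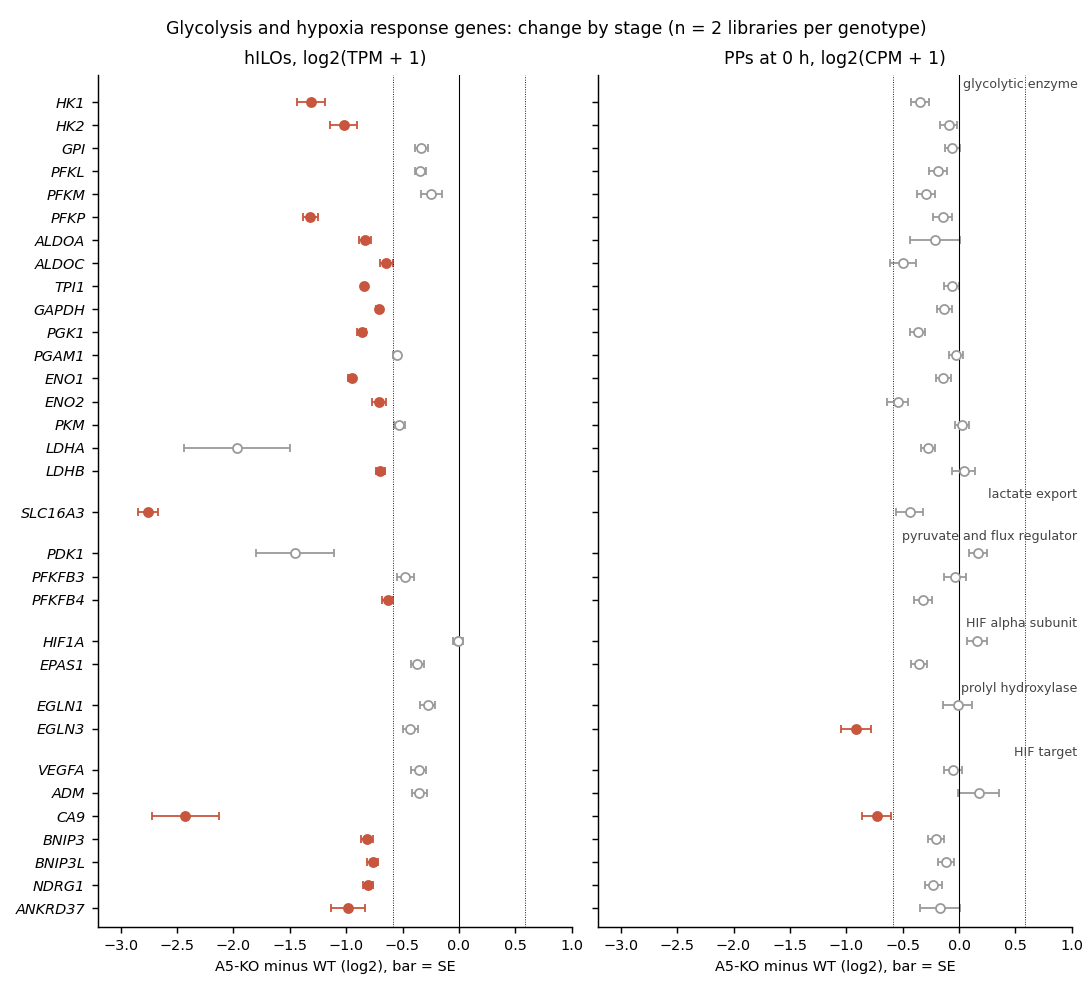
Change between A5-KO and WT on the log2 scale with its standard error, for hILOs on the left and PPs at 0 h on the right, with filled points past both limits, dotted lines at 1.5-fold and 2 libraries for each genotype. In hILOs 18 points are filled and the lowest is SLC16A3 at -2.76, whereas in PPs the filled points are EGLN3 (-0.91) and CA9 (-0.73).

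The same comparison in untreated PPs, on log2(CPM + 1) over 13911 genes, gave smaller differences. Of the 32 genes 2 were downregulated and 0 upregulated, against a background of 1.13% and 1.57% of all genes tested. At an unadjusted *p* below 0.05, 14 were lower and 0 higher, against 8.29% and 11.0% of all genes tested. Both A5-KO libraries lay below both WT libraries for 22 of the 32 (20.8% of all genes tested) and above them for 4 (29.0% of all genes tested), and the median change was -0.16 against 0.03 over all genes. The 8 hepatocyte markers summed to 1079 to 1140.3 CPM in WT and 1831 to 1889 CPM in A5-KO PPs, with 5 separated upward and 1 downward. The largest part of that sum was *AFP* (563 and 551 CPM with ALKBH5 intact, 1343 and 1294 CPM without it), and *SERPINA1* went the other way (311 and 371 CPM against 200.3 and 268 CPM). Mesenchyme markers summed to 111 to 118 CPM against 196 to 201 CPM with 4 of 6 separated upward and 2 downward, intestine markers to 586 to 612 CPM against 788 to 813 CPM with 3 of 3 upward, and endothelium markers to 3.96 to 4.15 CPM against 5.10 to 8.19 CPM with 2 of 3 upward. Their part in these differences was not tested.

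*EGLN3*, an oxygen sensor and HIF target at chr14:33924227-34462774, was at 28.4 and 27.9 CPM in WT and 16.1 and 13.1 CPM in A5-KO PPs (-0.91 ± 0.13, adjusted *p* = 0.00551). It passed in each of the 4 fits without a library. *CA9*, at chr9:35673928-35681159, was at 23.0 and 25.7 CPM in WT and 13.6 and 14.9 CPM in A5-KO PPs (-0.73 ± 0.13, adjusted *p* = 0.0142), and it did not pass without WT replicate 2 (adjusted *p* = 0.0938). Neither gene overlapped between genotypes. *ARHGEF39*, which shares exon bases with *CA9* on the other strand, was at 29.1 and 23.8 CPM in WT and 25.2 and 23.4 CPM in A5-KO PPs. *EGLN1*, the main prolyl hydroxylase, was at 29.7 and 24.0 CPM against 25.6 and 27.4 CPM, and its share of the sum with *EGLN3* was 58.8% and 54.0% in WT and 68.6% and 74.1% in A5-KO PPs. Of the exon bases of *EGLN1*, 55.8% lie in another gene on the same strand, ENSG00000287856, which was listed at 0 CPM in PPs and at 37.1 to 45.4 TPM in hILOs.

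A further 6 genes had an adjusted *p* below 0.05 in PPs but changed by less than 1.5-fold, which made 8 lower by the *p* limit alone (2.05% of all genes tested). These were *ENO2* (-0.54), *ALDOC* (-0.50), *PGK1* (-0.37), *EPAS1* (-0.35), *HK1* (-0.34) and *LDHA* (-0.27). *ENO2* was at 65.7 and 63.0 CPM in WT and 42.5 and 45.2 CPM in A5-KO PPs, and *PGK1* was at 1069 and 1160.0 CPM against 841 and 885 CPM. *ALDOC* was at 51.0 and 62.2 CPM in WT against 38.7 and 40.7 CPM, *HK1* at 138 and 135 CPM against 104 and 111 CPM, and *LDHA* at 1049 and 1068 CPM against 899.8 and 853 CPM. *EPAS1* was at 193 and 199 CPM against 158 and 148 CPM, which with *HIF1A* put the *HIF1A* share of both alpha subunits at 46.9% and 42.9% in WT and 53.9% and 53.9% in A5-KO PPs. None of the 6 overlapped between genotypes. *SLC16A3*, which had fallen furthest in hILOs, was at 285 and 307 CPM in WT and 188 and 252 CPM in A5-KO PPs (-0.44 ± 0.12, adjusted *p* = 0.0775), and without A5-KO replicate 2 it passed at -0.65 (adjusted *p* = 0.00112). *ENO2* also passed without that library, which brought the count of downregulated genes to 4.

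Estimates in PPs were below 0 for 27 of the 32 genes and for 43.5% of all genes tested. Of the 18 genes downregulated in hILOs, 17 had an estimate below 0 in PPs, and the exception was *LDHB*, at 36.0 and 35.4 CPM in WT and 36.7 and 36.7 CPM in A5-KO PPs. *PDK1* was at 116 and 116 CPM in WT and 137 and 124 CPM in A5-KO PPs, and *HIF1A* at 120.4 and 106 CPM against 130.2 and 122 CPM, and neither difference passed. The 17 enzymes, scaled by exon length, summed to 8551 and 8879 length-scaled CPM in WT PPs and 7546 and 7850 in A5-KO PPs, again with no overlap.

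By level per length, *GAPDH*, *ENO1* and *TPI1* held the first 3 ranks of the 32 genes in PPs of both genotypes, at 2815 ± 119, 2101 ± 53.9 and 989 ± 35.1 in WT (length-scaled CPM, s.d., *n* = 2), and they also ranked above the others in hILOs. Scales of the PP and hILO tables were set separately, so levels were not compared between stages. At the low end of the PPs were *EGLN3* at 12.2 ± 0.353, *ALDOA* at 4.14 ± 1.45, *ANKRD37* at 4.00 ± 0.0849 and *ADM* at 3.74 ± 0.115. The libraries of *ALDOA* spanned the levels of *ANKRD37* and *ADM*, while those of *ANKRD37* lay above those of *ADM*. *ALDOA* stood at the 27.8th percentile of genes in WT PPs, with 6.14 and 3.78 CPM, but at the 98.1st in WT hILOs. The gene that shares its exons was likewise at 0.603 and 1.21 CPM in WT PPs. How the PP counts treated reads in shared exons is not given in the sources used here. The *ALDOA*, *LDHB* and *EGLN1* levels of PPs are therefore uncertain, as are shares and slopes that rest on them. The same holds for *CA9* and *ANKRD37*, whose exons share bases with genes on the other strand, since a stranded count is not described.

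Decay after Act D was taken as the slope of log2(CPM + 0.1) over 0 to 3 h, fitted for both genotypes over the 16 PP libraries and 13620 genes. CPM was relative to the total of each library, so a negative slope means loss faster than that of the total and a positive slope slower loss. Slopes were below 0 for 62.9% of all genes tested in WT and 66.2% in A5-KO PPs. A negative slope therefore need not mean faster loss than that of the typical gene. In WT PPs the slopes of the 32 genes ran from -0.25 (*EGLN3*) to 0.09 (*LDHB*) per h, and 0 were below and 0 above 0 at an adjusted *p* below 0.05, against 0.11% and 0.132% of all genes tested (0.242% together). At an unadjusted *p* below 0.05 limma gave 2 below 0 and 0 above, against 11.4% and 1.95% of all genes tested, and edgeR with recovered reads gave 0 and 0 after adjustment.

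In A5-KO PPs 9 of the 32 genes had a negative slope past the limit and 7 a positive one, against 37.1% and 7.44% of all genes tested (44.5% together), so the share was below the background for negative slopes and above it for positive ones. The median slope was 0.07 per h for the 32 and -0.08 per h for all genes. With median-of-ratios scaling the split was 4 negative and 17 positive, against 26.7% and 23.4% of all genes tested, and edgeR also called 4 and 17, against 27.3% and 22.3%. Under these scalings the median A5-KO slope of all genes moved up by 0.10 and 0.09 per h, so the sign of a slope is read relative to the scaling. Of the 17 enzymes, 1 (*HK2*) had a negative and 7 a positive slope past the limit.

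**Figure D4:**
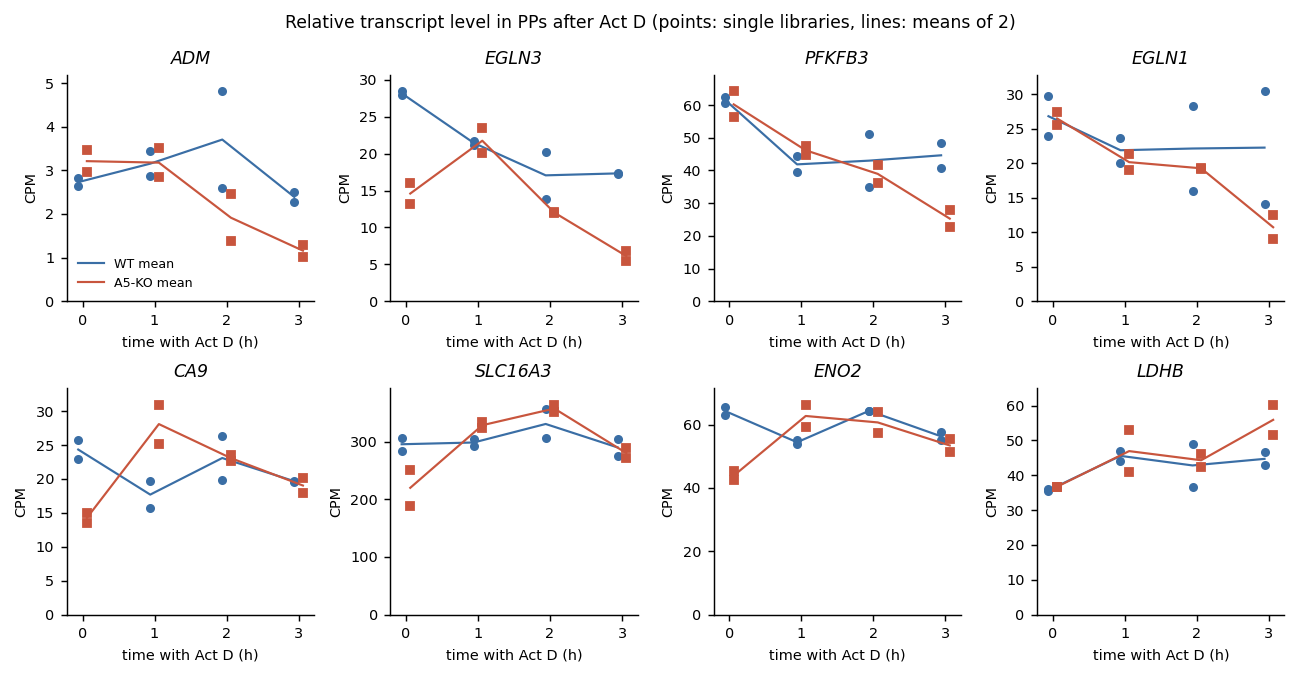
CPM of 8 genes in PPs against time with Act D (h), with WT as circles and A5-KO as squares, a point for each library and lines through the means of 2 libraries. ADM, EGLN3, PFKFB3 and EGLN1 end lower in A5-KO than in WT libraries at 3 h, while CA9, SLC16A3 and ENO2 start lower in A5-KO at 0 h and lie above both WT libraries at 1 h.

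*ADM* had the steepest A5-KO slope, at -0.49 ± 0.11 per h (adjusted *p* = 0.00171). Its A5-KO libraries started at 2.97 and 3.46 CPM, stood at 2.85 and 3.51 CPM after 1 h, passed through 1.37 and 2.46 CPM after 2 h and reached 1.02 and 1.30 CPM after 3 h, while WT libraries were at 2.64 and 2.82 CPM at 0 h and 2.51 and 2.27 CPM at 3 h. Half-lives relative to the total, from a line fixed at the 0 h value in each replicate, were 2.15 and 2.81 h in A5-KO PPs and 92.4 h or not falling in WT. *EGLN3* went from 16.1 and 13.1 CPM at 0 h up to 20.1 and 23.4 CPM at 1 h and then down to 6.82 and 5.44 CPM at 3 h in A5-KO PPs, and from 28.4 and 27.9 CPM to 17.2 and 17.4 CPM in WT (slopes of -0.46 ± 0.11 and -0.25 ± 0.11 per h). Its relative half-lives overlapped, at 3.32 and 4.43 h in A5-KO and 3.01 and 4.23 h in WT PPs. A single slope describes the rise and fall of its A5-KO course poorly.

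*PFKFB3*, the activator of phosphofructokinase, went from 64.2 and 56.2 CPM through 47.5 and 44.8 after 1 h and 41.6 and 36.3 after 2 h to 27.9 and 22.6 CPM after 3 h in A5-KO PPs. In WT PPs it went from 62.6 and 60.6 CPM through 39.4 and 44.3 after 1 h and 35.0 and 51.0 after 2 h to 40.8 and 48.5 CPM after 3 h. Its relative half-life was 2.65 and 2.54 h in A5-KO and 3.34 and 7.33 h in WT replicates, with no overlap. The share of all genes whose half-lives separate this way was not counted, which holds for the other genes below as well. The slope difference, A5-KO minus WT, was below 0 for 68.4% of all genes tested and 34.4% of the 32. *EGLN1* went from 25.6 and 27.4 CPM through 21.3 and 19.0 after 1 h and 19.2 and 19.4 after 2 h to 12.5 and 8.98 CPM after 3 h in A5-KO PPs, whereas the WT libraries after 3 h were far apart, at 30.5 and 14.1 CPM. *HK2* had a relative half-life of 5.98 and 5.24 h in A5-KO and 10.5 and 13.5 h in WT PPs, and *HIF1A* one of 4.46 and 5.72 h against 8.52 and 41.7 h. *HIF1A* went from 130.2 and 122 CPM through 95.6 and 102 after 1 h and 93.4 and 95.3 after 2 h to 87.2 and 87.3 CPM after 3 h in A5-KO PPs, and WT libraries stood at 105 and 110.4 CPM after 3 h, so the genotypes were in opposite order at 0 and 3 h. *HK2* went from 127 and 124 CPM through 126 and 104 after 1 h and 106 and 115 after 2 h to 83.5 and 74.0 CPM after 3 h in A5-KO PPs.

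The other genes with a negative slope in A5-KO PPs were *ANKRD37* (-0.34), *VEGFA* (-0.18) and *PFKFB4* (-0.13). *ANKRD37*, the least abundant of them, went from 2.35 and 2.46 CPM through 2.01 and 1.78 after 1 h and 1.61 and 2.36 after 2 h to 0.937 and 1.14 CPM after 3 h. *VEGFA* went from 122 and 114 CPM through 131 and 115 after 1 h and 83.2 and 82.4 after 2 h to 97.1 and 80.4 CPM after 3 h. *PFKFB4* went from 88.2 and 85.9 CPM through 95.8 and 90.7 after 1 h and 86.0 and 91.9 after 2 h to 64.7 and 66.0 CPM after 3 h. In *VEGFA* and *PFKFB4* the levels at 1 h had not yet dropped below 0 h, and the loss came later in the course. Relative half-lives overlapped between genotypes for *VEGFA* (6.96 and 5.79 h in A5-KO, 5.73 and 31.4 h in WT) and *PFKFB4* (10.8 and 16.1 h against 10.6 and 12.6 h), and not for *ANKRD37* (2.81 and 3.78 h against 9.81 and 9.25 h). Slopes closest to 0 in A5-KO PPs belonged to *EPAS1*, *HK1* and *PDK1* (0.01, -0.02 and 0.02 per h). *EPAS1* went from 158 and 148 CPM through 143 and 116 after 1 h and 155 and 156 after 2 h to 144 and 148 CPM after 3 h, *HK1* from 104 and 111 CPM through 128 and 122 after 1 h and 117 and 114 after 2 h to 115 and 97.7 CPM after 3 h and *PDK1* from 137 and 124 CPM through 116 and 111 after 1 h and 129.8 and 126 after 2 h to 131 and 133 CPM after 3 h.

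At the slow end in A5-KO PPs was *LDHB* at 0.17 ± 0.05 per h (adjusted *p* = 0.0123), which went from 36.7 and 36.7 CPM through 41.0 and 52.9 after 1 h and 42.4 and 46.2 after 2 h to 51.5 and 60.3 CPM after 3 h. *PFKL* (0.14), *PGAM1* (0.11), *TPI1* (0.10), *PKM* (0.09), *GAPDH* (0.09) and *ENO1* (0.09) followed. *PFKL* went from 335 and 384 CPM through 488 and 495 after 1 h and 519 and 501 after 2 h to 485 and 487 CPM after 3 h, and *PGAM1* from 459 and 456 CPM through 516 and 545 after 1 h and 584 and 586 after 2 h to 572 and 569.6 CPM after 3 h. *TPI1* went from 777 and 827 CPM through 957 and 1047 after 1 h and 1073 and 1070.1 after 2 h to 953 and 1013 CPM after 3 h, and *PKM* from 1049.7 and 1096 CPM through 1313 and 1286 after 1 h and 1350.2 and 1346 after 2 h to 1303 and 1326 CPM after 3 h. *GAPDH* went from 1865 and 2009 CPM through 2292 and 2308 after 1 h and 2486 and 2407 after 2 h to 2276 and 2382 CPM after 3 h, and *ENO1* from 2997 and 3245 CPM through 3619 and 3827 after 1 h and 4051 and 4022 after 2 h to 3626 and 3778 CPM after 3 h. In each of these 6 enzymes both libraries at 3 h lay below both at 2 h and above both at 0 h. The positive slopes rested on the libraries at 0 h, since without A5-KO replicate 1 or replicate 2 at 0 h 1 of the 7 genes still passed. It was *PGAM1*, the phosphoglycerate mutase, which passed in all 16 fits that left out a library.

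No gene of the 32 differed in slope between genotypes after adjustment, with 0 lower and 0 higher against 2.61% and 0.0661% of all genes tested (2.67% together). At an unadjusted *p* below 0.05 limma gave 4 lower (*ADM*, *PFKFB3*, *HIF1A* and *HK2*) and 0 higher, and edgeR gave 0 and 0 after adjustment. These 4 are 12.5% of the 32, below the 20.0% of all genes tested that were lower at that limit. Their estimates were -0.46 ± 0.16 for *ADM* (adjusted *p* = 0.101), -0.26 ± 0.09 for *PFKFB3* (adjusted *p* = 0.0998), -0.13 ± 0.05 for *HIF1A* (adjusted *p* = 0.151) and -0.14 ± 0.06 for *HK2* (adjusted *p* = 0.176). *PFKFB3* and *HIF1A* passed, as 2 lower, without WT replicate 1 at 0 h, and *PFKFB3* alone without WT replicate 1 at 2 h.

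Separation of the genotypes was also counted at each time. Both A5-KO libraries lay below both WT libraries for 22 of the 32 genes at 0 h, 10 at 1 h (23.5% of all genes tested), 12 at 2 h (37.6%) and 14 at 3 h (45.5%). They lay above for 4, 14 (32.5%), 9 (19.8%) and 7 (20.5%) genes. In A5-KO PPs both libraries at 1 h were above both at 0 h for 21 of the 32 genes (20.4% of all genes tested), and in WT PPs for 13 (20.6%). They were below for 6 in A5-KO PPs (47.4%) and for 12 in WT PPs (49.1%). *CA9* was at 25.2 and 31.0 CPM at 1 h in A5-KO and 19.6 and 15.7 CPM in WT PPs, the opposite order to 0 h. *SLC16A3* was at 334 and 324 CPM at 1 h in A5-KO and 292 and 305 CPM in WT PPs, and *ENO2* at 66.3 and 59.2 CPM against 53.9 and 55.0 CPM. *ALDOC* and *LDHA* kept their order, with both A5-KO libraries below both WT libraries at all 4 times. CPM is relative to the library total, so a higher value at 1 h does not show that more of the transcript was present in the cells.

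For context, 82 further genes of the same and neighbouring pathways were followed in 6 lists, of which 78 were tested in hILOs. These lists were likewise chosen with earlier results of these data known, and their counts are descriptions. Among them 17 were downregulated and 3 upregulated, where the background over all genes tested was 4.09% and 2.7%. Other HIF targets held 13 of the 17 falls (13 lower and 1 higher of 28, median -0.77). Among the largest falls were *DDIT4*, an inhibitor of mTORC1 (105 and 92.3 TPM in WT hILOs, 22.9 and 24.1 TPM in the A5-KO pair, -2.02), and *G6PC1*, the last enzyme of gluconeogenesis (14.5 and 13.1 TPM against 3.03 and 3.44 TPM, -1.81). The 3 upregulated genes were *PGAM2*, the muscle phosphoglycerate mutase (1.70), *PPP1R3C*, a glycogen-targeting phosphatase subunit (1.66), and *PFKFB1*, the liver bifunctional enzyme (1.31).

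Among the remaining lists in hILOs, other glycolysis genes gave 2 lower and 2 higher of 18 (median 0.12), gluconeogenesis 2 lower of 5, and pentose phosphate, pyruvate dehydrogenase and oxygen-sensing genes 0 in either direction of 7, 10 and 10, with medians of -0.13, -0.05 and -0.17. In PPs 3 of 74 were downregulated, among them *ANGPTL4* (-0.96) and *PCK1* (-0.67), and 1 was upregulated (*PPP1R3C* at 1.29). The background in PPs was 1.13% downregulated and 1.57% upregulated of all genes tested.

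**Figure D5:**
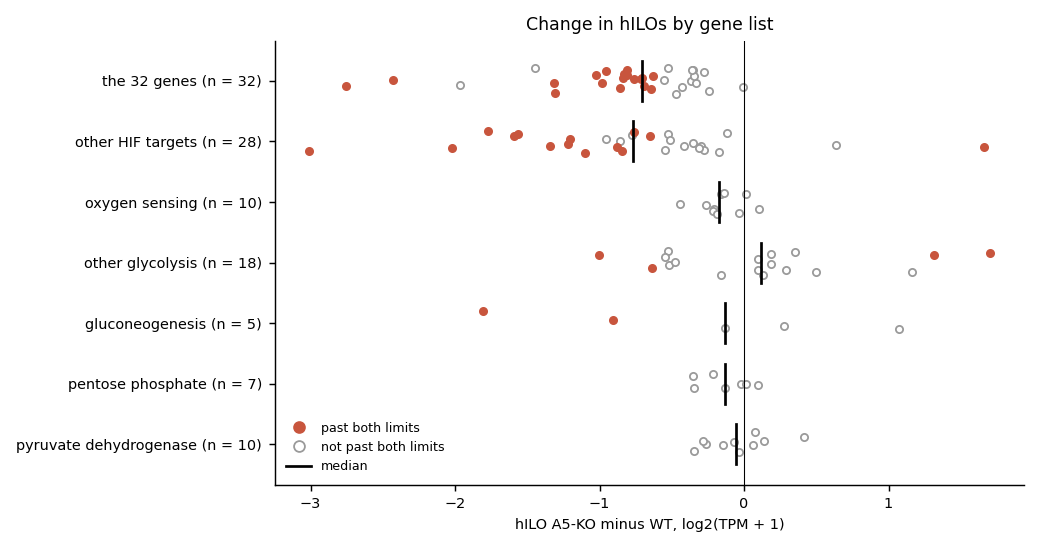
Change between A5-KO and WT hILOs on the log2(TPM + 1) scale for the 32 genes and 6 lists of further genes, with a point for each gene, filled when past both limits, and a bar at the median. The medians are -0.71 for the 32 genes and -0.77 for the other HIF targets, and between -0.17 and 0.12 for the other 5 lists.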

How the data were processed

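Expression of 32 genes was read from RNA-seq of MEL1-derived cells in 20 libraries, 4 of hILOs and 16 of PPs, grouped by genotype, stage and time as given in the sample labels. For hILOs the authors aligned reads to GRCh38 (hg38) with HISAT2 (version 2.1.0 in the submitters' processing notes), quantified them with StringTie and deposited TPM per gene. For PPs the authors deposited CPM per gene, without the ERCC spike-ins, after trimming with fastp and HISAT2 alignment. The annotation release and the read counter are not given in the sources used here. Deposited CPM were whole multiples of 1 read for 100% of values (tolerance 0.05 of a read), which gave back the reads. TPM gives no depth.

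Genotypes and decay slopes were tested with limma (3.58.1, under R 4.3.3, with a trended prior variance) on log2(TPM + 1), log2(CPM + 1) and log2(CPM + 0.1), keeping genes that averaged 1 or more. The study used DESeq2, which needs counts. The hILO table holds none, and the PP unit is CPM, so count tests on recovered reads were alternatives. On recovered reads of PPs at 0 h edgeR (4.0.16) called 205 genes lower and 228 higher, and DESeq2 (1.42.0) 221 and 243. Exon lengths, overlaps and coordinates came from GENCODE, promoters from RefSeq. The 32 genes and all lists were chosen with earlier results of these data known. All 32 are accounted for, and the ones past a limit, with extreme slopes, or in paralog groups are given by library. From the other pathway lists at most 3 genes per direction were named, those with the largest change, and 1 gene is not reported here. The code was tested on simulated data. Alternatives were the pseudocount, the filter, the scaling, a replicate block, other tests, fewer times and each library left out.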

Additional observations from a re-analysis of the deposited data

Results flagged for a closer look

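Genes whose A5-KO libraries both lay on one side of WT in hILOs and on the other side in PPs at 0 h were singled out, and this difference between stages was not tested. *PDK1* changed by 0.17 in PPs and -1.45 in hILOs (log2), *ADM* by 0.17 in PPs and -0.35 in hILOs, and *LDHB* by 0.0401 in PPs and -0.70 in hILOs. Of the 3, *LDHB* passed both limits in hILOs, and none passed in PPs. The PP level of *LDHB* is uncertain because part of its exons lies in another gene.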

How the results depend on the processing

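Several counts depended on the settings. In hILOs the 18 downregulated genes became 10 to 11 when any library was left out, and 0 were upregulated in each of these fits. A pseudocount of 0.1, no filter, a mean of at least 10 and median-of-ratios scaling gave 17, 13, 17 and 16. In PPs at 0 h the 2 downregulated genes were 1 to 4 with a library left out and 1 without a filter. In the WT course the counts of 0 became 4 lower and 2 higher with 0 and 1 h only and 4 lower with 0 and 3 h only. In the A5-KO course the 9 negative slopes became 4 with median-of-ratios scaling, 3 with 0 and 1 h only and 4 with edgeR, and were 7 to 9 with a library left out. The 7 positive slopes became 2 without a filter, 17 with median-of-ratios scaling, 17 with 0 and 1 h only, 14 with 0 and 3 h only, 3 without 2 h, 17 with edgeR and 1 to 9 with a library left out. For the slope difference, 4 were higher with 0 and 1 h only, 4 lower and 2 higher with 0 and 3 h only, and 0 to 2 lower with a library left out. Over all genes tested, the hILO counts (707 lower and 467 higher) ran from 187 to 714 and 143 to 572 under the other settings and from 96 to 203 and 83 to 118 with a library left out, the PP counts at 0 h (157 and 218) from 77 to 266 and 87 to 365, the WT slopes (15 and 18) from 7 to 3512 and 9 to 293, the A5-KO slopes (5054 and 1013) from 3636 to 5747 and 793 to 3186, and the slope difference (355 and 9) from 0 to 2739 and 0 to 290.

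The sign of some estimates also changed. In hILOs *HIF1A* was 0.0542 with median-of-ratios scaling and -0.0364 to 0.0161 with a library left out. In PPs at 0 h *PKM* was -0.0189 with median-of-ratios scaling, -0.0117 with edgeR and -0.011 with DESeq2, and *LDHB* -0.0016 with median-of-ratios scaling. With a library left out *PKM* was -0.0068 to 0.0548, *ALDOA* -0.5005 to 0.079, *EGLN1* -0.1592 to 0.1386 and *PFKFB3* -0.1294 to 0.0592. WT slopes were 0.196 for *ADM* and 0.09 for *ANKRD37* with 0 and 1 h only and 0.0013 for *ADM* with edgeR. With a library left out they were -0.0695 to 0.0087 for *HIF1A*, -0.0843 to 0.0277 for *ADM* and -0.251 to 0.0036 for *EGLN1*. With 0 and 1 h only, A5-KO slopes were 0.0987 for *PFKFB4*, 0.0577 for *VEGFA* and 0.5756 for *EGLN3*, and slope differences 0.0837 for *HK2*, -0.0092 for *LDHB*, 0.1783 for *PFKFB3*, 0.3067 for *PFKFB4*, 0.2855 for *VEGFA* and 0.9671 for *EGLN3*. The slope difference of *PFKFB4* was 0.0047 after scaling by median of ratios and 0.0066 in edgeR. The cause was not tested for any of these.

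Replicates with the same number were compared between genotypes by how they departed from their group means. The correlation across genes was -0.01 in hILOs. In PPs it was 0.18, -0.01, -0.06 and -0.02 at 0, 1, 2 and 3 h. The main fits therefore did not pair libraries by number. The relative half-lives did, since each library was set against the 0 h library of its own number and genotype. These correlations do not bear on pairing across times, which was not tested. With the replicate block 18 of the 32 genes were downregulated in hILOs (17 of them shared with the fit without it) and 2 in PPs at 0 h, and the A5-KO slopes gave 9 and 7. TPM leaves the counting error of hILOs unknown, and 2 libraries per group set the precision of every value.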
